A study of Mus musculus with 6 samples.

Results

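The 10 genes described here are grouped as iron uptake, storage and hepcidin genes. They are the hepcidin genes Hamp and Hamp2, the hepcidin inducer Bmp6, the transferrin receptors Tfrc and Tfr2, and transferrin itself (Trf). The others are the ferritin chains Fth1 and Ftl1, the iron exporter Slc40a1 and the ferroxidase Cp. All 10 were found among the 22911 gene symbols of the array by matching each probe's accession to a symbol, which gave 17 probes. All 17 probes passed the filter on dim probes, which asked for signal well above background in both tumours of some group, so all 10 genes were measured.

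Gene expression was measured in 6 hepatocellular carcinomas of C57BL/6 mice, 1 tumour per 1-colour Agilent array and 2 tumours in each of 3 groups. Epcam-derived tumours with a component labelled CLC, and Epcam-derived tumours without it, both came from Epcam-AID mice that had received tamoxifen and a diet with 0.1% DDC for 8 months. The labels do not expand CLC or AID, and per the series title the cells of origin were ductular progenitor cells. DDC is a compound that inhibits heme synthesis and causes ductular proliferation. The third group was Albumin-derived tumours without CLC from Alb-AID mice at 90 weeks of age, for which the labels give neither DDC nor tamoxifen. Line differs between the Epcam-derived and Albumin-derived groups, and tamoxifen and diet are labelled for the Epcam-derived groups alone. These factors cannot be told apart, and the labels give neither the age of the Epcam-derived mice nor any sex. No liver without tumour was analysed here, so every difference is between tumours. The labels do not say whether the 2 tumours of a group came from separate mice, so p-values measure the spread between these samples only.

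The liver is the organ that sets the body's iron level. Hepatocytes secrete hepcidin, a peptide hormone that binds the exporter ferroportin on macrophages and gut cells and has it degraded, which keeps iron in those cells and lowers iron in plasma. Hepcidin transcription rises with BMP6, which sinusoidal endothelial cells release when liver iron is high and which acts through SMAD proteins, and with IL-6, which acts through STAT3. Inside a cell, iron regulatory proteins adjust Tfrc mRNA stability and ferritin translation, so ferritin protein can change with no change in its mRNA, and the arrays measure mRNA only.

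Hamp and Hamp2 are neighbouring paralogs on mouse chromosome 7, and both promoters are shown because hepcidin is the gene through which the BMP and IL-6 signals meet. Each sequence is the 250 bases before the annotated start, from RefSeq on GRCm38.p6, minus strand, at chr7:30944030-30944279 for Hamp and chr7:30924182-30924431 for Hamp2. The first capitals mark the GGCGCC core of the proximal BMP response element, or the bases aligned to it in Hamp2, and the second capitals mark the match to the STAT motif TTCNNNGAA.
Hamp: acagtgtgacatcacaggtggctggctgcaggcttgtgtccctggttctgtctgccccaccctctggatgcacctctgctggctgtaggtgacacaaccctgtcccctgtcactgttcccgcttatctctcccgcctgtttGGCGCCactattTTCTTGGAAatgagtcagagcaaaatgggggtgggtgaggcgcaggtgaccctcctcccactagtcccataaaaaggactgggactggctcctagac
Hamp2: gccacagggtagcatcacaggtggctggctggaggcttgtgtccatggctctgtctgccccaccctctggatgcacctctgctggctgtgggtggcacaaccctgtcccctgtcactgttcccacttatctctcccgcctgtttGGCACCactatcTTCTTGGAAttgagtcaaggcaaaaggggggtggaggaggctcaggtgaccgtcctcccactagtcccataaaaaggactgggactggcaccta

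The 2 windows of 300 bases, which also hold 50 bases after the start, were 92.9% identical over 297 aligned columns. Counted from the annotated start, the letters GGCGCC of Hamp began at -109 and its STAT match at -97. In Hamp2 the STAT match began at -94, while the aligned BMP core at -106 held GGCACC, the substitution G4A counted from the first base of the core in Hamp. Over both strands, GGCGCC occurred in 11.9% of 32851 RefSeq promoter windows of the same length and TTCNNNGAA in 8.3%. RefSeq windows were at hand for 8 of the 10 genes. Among them GGCGCC was found in Hamp and Tfrc, and TTCNNNGAA in Hamp and Hamp2. The hypoxia motif core ACGTG was found in windows of Tfr2, Bmp6 and Tfrc, against 19.6% of all windows, and the antioxidant response core TGANNNNGC in Bmp6 alone among the 8, against 41.3% of all windows. A match is a string of letters and was not measured as a bound site here.

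Values below are normalised log2 signals, that is the log2 of the processed signal minus the 75th percentile of the same array, so 0 is the level of that percentile. Differences are in log2 units ± SE with n = 2 tumours per group, p-values are adjusted by Benjamini-Hochberg over 27412 features in limma's fit, and the threshold was 0.05. None of the 10 genes passed in any of the 3 comparisons. Over all features, 0.244% passed for Epcam-derived without CLC against Albumin-derived tumours, 0% for Epcam-derived with CLC against without, and 0.062% for Epcam-derived with CLC against Albumin-derived. The 3 comparisons share tumours. At an unadjusted p under 0.05, the comparison of Epcam-derived without CLC against Albumin-derived tumours held Bmp6 alone of the 10 genes, against 20% of all features. The comparison of Epcam-derived with CLC against Albumin-derived held Bmp6 and Tfrc, against 16% of all features, and that of with CLC against without held none, against 3.48%. Counting direction alone, 6, 4 and 5 of the 10 genes were higher without CLC against Albumin-derived, with CLC against Albumin-derived and with CLC against without, where 53.5%, 49.3% and 43.1% of all features were. The median difference of the 10 genes was 0.03, -0.02 and 0.09 in these 3 comparisons, in that order, beside 0.06, -0.01 and -0.06 over all features.

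The arrays lay on 2 slides. Slide 1 held 1 Epcam-derived tumour with CLC and both Albumin-derived tumours, and slide 2 held the other Epcam-derived tumour with CLC and both Epcam-derived tumours without CLC. Each tumour with CLC thus gives 1 within-slide value, and the comparison of Epcam-derived without CLC against Albumin-derived tumours is tied to the slide except through the tumours with CLC. The 75th percentile of signal was 285 to 488 per array, 52.0% to 64.6% of probes were well above background, and no member probe was saturated. Hepatocyte markers were high on every array, with a summed level (signal over the 75th percentile, 12 genes) of 2616 and 3848 with CLC, 2769 and 3621 without CLC and 4968 and 5687 in Albumin-derived tumours. Biliary markers, of which Epcam is one, had a summed level (11 measured of 12) of 62.0 and 111 with CLC, 47.0 and 30.5 without CLC, and 6.48 and 40.5 in Albumin-derived tumours. In bulk tissue, fewer cells of a type and less RNA per cell cannot be told apart.

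**Figure D1:**
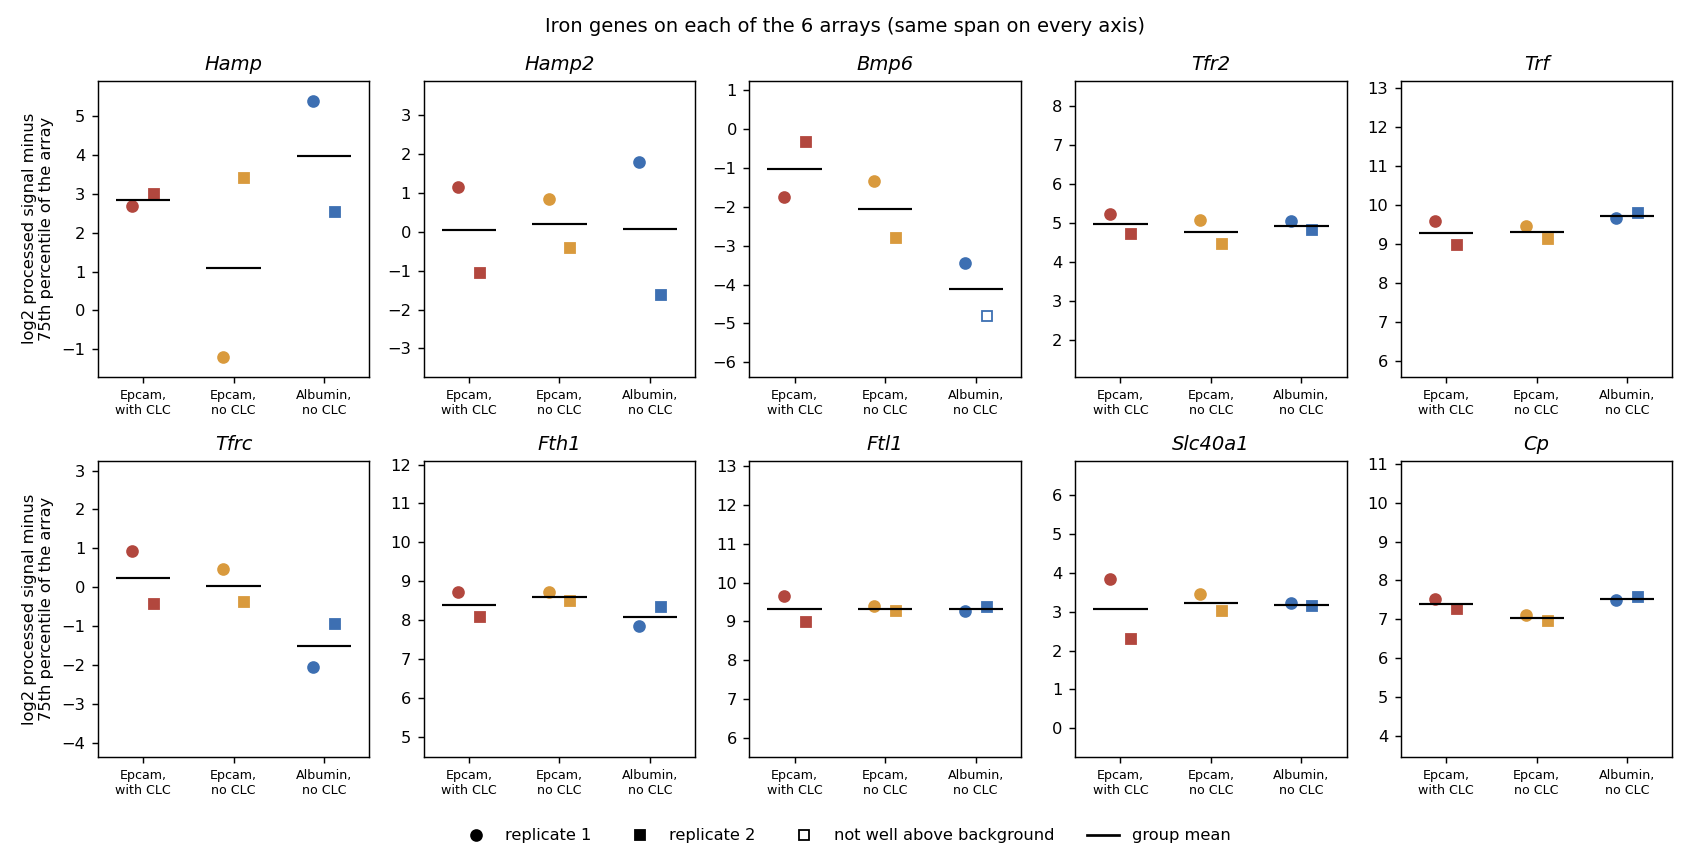
Normalised log2 signal (y axis, log2 of the processed signal minus the 75th percentile of the array) of the 10 genes in the 3 groups, 1 point per tumour and a line at the group mean; every axis spans the same number of log2 units. Hamp and Hamp2 spread widely within groups, Bmp6 and Tfrc lie lowest in both Albumin-derived tumours, and Fth1, Ftl1, Trf and Cp vary little.

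Hepcidin was the most variable of the 10 genes. Hamp, which encodes the active hormone, was at 2.69 and 2.99 in the Epcam-derived tumours with CLC, at -1.20 and 3.40 in those without CLC, and at 5.39 and 2.54 in the Albumin-derived tumours. The corresponding processed signals were 2027 and 3888, 185 and 4813, and 11966 and 1784. The lowest value thus came from 1 Epcam-derived tumour without CLC and the highest from 1 Albumin-derived tumour, while the partner of each lay close to the tumours with CLC, and all 3 groups overlapped. Within a group the 2 tumours differed 1.24-fold with CLC, 24.1-fold without CLC and 7.21-fold in the Albumin-derived group. The pooled within-group SD of Hamp was 2.21, larger than that of 99.5% of the features tested, whose median was 0.35.

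Against that spread the group means of Hamp could not be separated. The difference was -2.87 ± 1.63 for Epcam-derived without CLC against Albumin-derived tumours (limma, adjusted p = 0.376), with a 95% interval of -6.93 to 1.19. Leaving out 1 tumour moved it to between -5.16 and -0.57, the value of -0.57 being that without the low tumour of the group without CLC. It was -1.13 ± 1.63 with CLC against Albumin-derived (limma, adjusted p = 0.774), where leaving out 1 tumour gave -2.55 to 0.30, and 1.74 ± 1.63 with CLC against without (limma, adjusted p = 0.999). The last of these turned to -0.56 when the low tumour without CLC was left out. Within slide 1 the difference with CLC against Albumin-derived was -1.28, and within slide 2 the difference with CLC against without was 1.89.

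Hamp2, the second mouse hepcidin gene, whose product is not known to regulate iron, did not follow Hamp. It was at 1.15 and -1.07 in the tumours with CLC, 0.84 and -0.43 without CLC, and 1.79 and -1.64 in the Albumin-derived tumours. Every group held 1 high and 1 low tumour, and the pooled SD of 1.74 exceeded that of 98.5% of features. Across the 6 arrays the correlation of Hamp2 with Hamp was 0.08 (Pearson, a description over arrays that share groups and slides). Its differences were 0.13 ± 1.30 without CLC against Albumin-derived, -0.04 ± 1.30 with CLC against Albumin-derived and -0.16 ± 1.30 with CLC against without, and the 95% interval of the first ran from -3.10 to 3.36. The sequences of the probes were not at hand, so how far the 2 probes can bind each other's transcript was not tested.

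Genes upstream of hepcidin were looked at on the same arrays. Id1 and Atoh8 encode transcription factors induced by BMP and SMAD signalling in hepatocytes. Id1, chosen after its values were seen, was at 3.47 in the Albumin-derived tumour with the highest Hamp and between 0.69 and 1.61 in the other 5 tumours. Atoh8 was at 0.10 in the same tumour, at -0.96 in the other Albumin-derived tumour and between -2.18 and -1.47 in the 4 Epcam-derived tumours. Hjv, the BMP co-receptor needed for hepcidin expression and likewise chosen afterwards, was at 0.54 and 0.23 with CLC, -0.02 and 0.96 without CLC and 1.41 and 1.07 in Albumin-derived tumours. The SMAD-induced inhibitors Smad6 and Smad7, given for comparison, did not peak in that tumour. Smad7 was at -1.40 and -1.01 with CLC, -0.66 and -1.33 without CLC, and -0.90 and -1.91 in Albumin-derived tumours, and Smad6 at -1.74 and -2.77, -2.51 and -2.85, and -1.90 and -3.52 in the same order. None of these 5 genes passed the threshold in any comparison.

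The summed level of acute phase genes, which IL-6 and STAT3 induce in hepatocytes, did not order the tumours as Hamp did. Over 16 such genes it was 1410 and 827 with CLC, 1566 and 447 without CLC, and 2415 and 3059 in the Albumin-derived tumours. The sum is linear, so the brightest genes, such as Fgg, Itih4 and Mt1, weigh most in it, and single genes ran differently. In the Albumin-derived tumour with the highest Hamp, Orm1 was at 0.33, against 5.24 to 6.84 in the other tumours. Fgg was at 9.29 there, against 6.99 to 9.57 in the others. The tumour with the lowest Hamp had the sum of 1566, and its partner with the Hamp level of 3.40 had the sum of 447. In Epcam-derived tumours without CLC against Albumin-derived, 13 of the 16 genes were lower, with a median difference of -1.11. Apcs, which encodes serum amyloid P component, fell by 4.51 ± 0.45 on the log2 scale (limma, adjusted p = 0.0417) and was the 1 gene of the marker and iron lists to pass over all features. It was at 2.40 and 1.30 without CLC, against 6.22 and 6.51 in the Albumin-derived tumours. The call was lost when any of the 6 tumours was left out, with adjusted p of 0.077 to 0.181, and with the slide as a block (difference -3.89, adjusted p = 0.49). The part of acute phase expression in the Hamp levels was not tested.

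Bmp6, the ligand that reports liver iron to hepatocytes, had the highest differences of the 10 genes against Albumin-derived tumours. It was at -1.74 and -0.34 in the tumours with CLC, -1.33 and -2.80 in those without CLC, and -3.44 and -4.80 in the Albumin-derived tumours. All 4 Epcam-derived tumours lay above both Albumin-derived ones, as 17.6% of all features did, and the lower Albumin-derived value was not well above background. The difference with CLC against Albumin-derived was 3.08 ± 0.77, or 8.48-fold (limma, adjusted p = 0.169), with a 95% interval of 1.18 to 4.99. Without CLC against Albumin-derived it was 2.06 ± 0.77, or 4.16-fold (limma, adjusted p = 0.227), and with CLC against without it was 1.03 ± 0.77 with overlapping groups (limma, adjusted p = 0.999).

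The size of the Bmp6 difference depended on slide and background treatment. Within slide 1 it was 2.38 with CLC against Albumin-derived, and within slide 2 it was 1.73 with CLC against without. With the slide as a block, the difference without CLC against Albumin-derived was 0.65 ± 1.24. Under the normexp background correction, which compresses dim probes, the differences against Albumin-derived tumours were 1.35 with CLC and 0.64 without CLC.

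Sinusoidal endothelial markers, from the cell type known as the main source of BMP6 in liver, were set beside it. All 14 were measured, with a summed level of 51.2 and 26.1 with CLC, 32.0 and 32.6 without CLC, and 34.96 and 13.09 in the Albumin-derived tumours. Of the 14, 14 were higher with CLC against Albumin-derived, with a median of 0.83, and 0 passed the threshold. Without CLC against Albumin-derived, 10 of 14 were higher with a median of 0.42. Bmp6 was at -3.44 in the Albumin-derived tumour with the sum of 34.96. The part of endothelial RNA in the Bmp6 difference was not tested. Bmp2, the other endothelial ligand for hepcidin, differed by -0.42 ± 0.92 without CLC and by -0.005 ± 0.923 with CLC, each against Albumin-derived tumours.

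Tfr2, a transferrin sensor of hepatocytes that feeds into hepcidin control, was even across the tumours. It was at 5.23 and 4.70 with CLC, 5.08 and 4.47 without CLC, and 5.05 and 4.81 in Albumin-derived tumours, and all groups overlapped. The difference without CLC against Albumin-derived was -0.15 ± 0.34, with a 95% interval of -1.01 to 0.70, and with CLC against Albumin-derived it was 0.04, with an interval of -0.82 to 0.90. The second Tfr2 probe differed by -0.08 and 0.06 in the same comparisons. Changes of up to about 2-fold in either direction lie within these intervals.

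Trf, the plasma carrier that hepatocytes secrete, was slightly lower in each Epcam-derived tumour by the normalised signal, but not by the processed signal. Normalised, it was at 9.60 and 8.98 with CLC, 9.47 and 9.14 without CLC, and 9.66 and 9.80 in the Albumin-derived tumours. The processed signals were 243912 and 246338, 299958 and 256809, and 229744 and 272436 in the same order, and these overlapped. On the normalised scale all 4 Epcam-derived tumours lay below both Albumin-derived ones, as 18.2% of all features did. The differences were -0.43 ± 0.32 without CLC (limma, adjusted p = 0.483) and -0.44 ± 0.32 with CLC (limma, adjusted p = 0.55), each against Albumin-derived. The second Trf probe gave -0.47 and -0.38. Under quantile normalisation the brighter probe gave 0.07 and 0.06. Hepatocyte markers were lower in the same direction, 10 of 12 without CLC and 11 of 12 with CLC against Albumin-derived tumours, with medians of -0.58 and -0.79, and their part in the Trf difference was not tested.

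**Figure D2:**
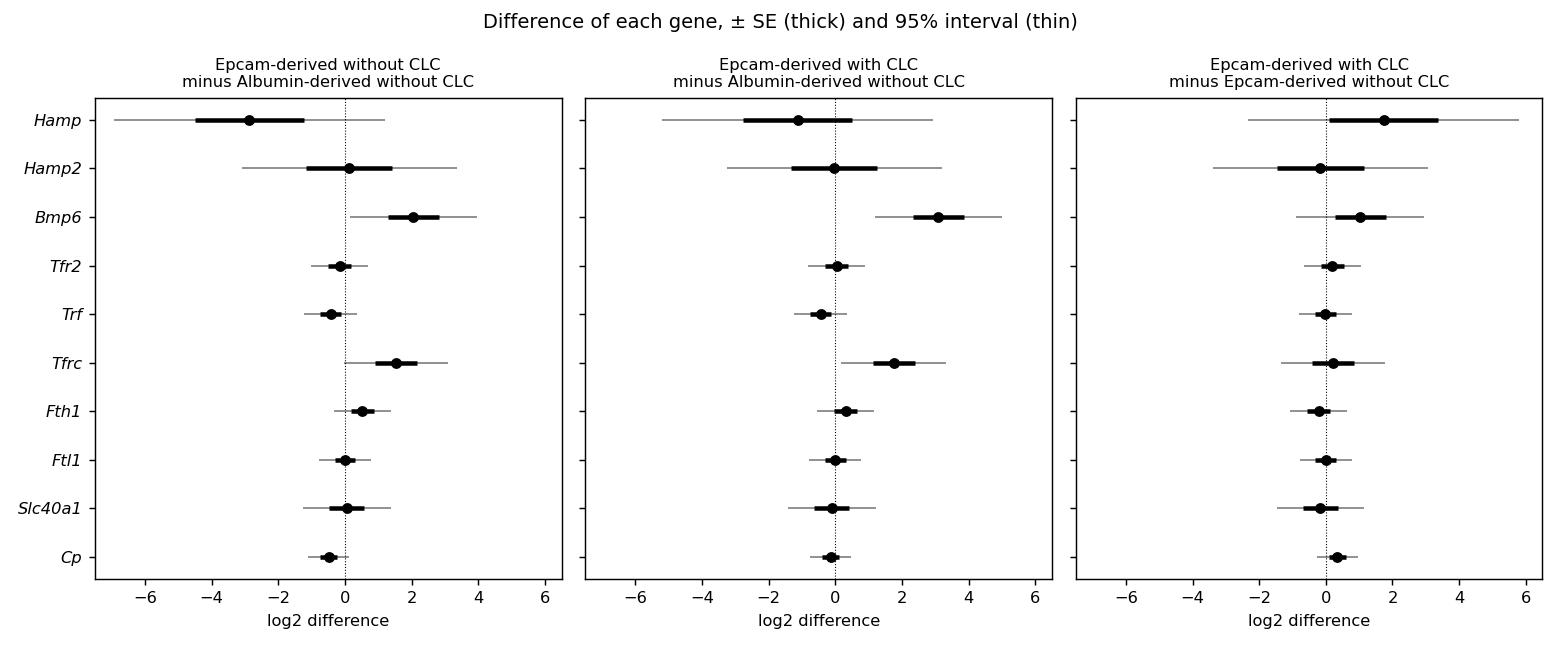
Log2 difference (x axis) of each of the 10 genes in the 3 comparisons, with SE as a thick bar and the 95% interval as a thin line. The intervals of Hamp and Hamp2 are the widest; Bmp6 reaches 3.08 with CLC against Albumin-derived tumours, and no gene passed the adjusted threshold.

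Tfrc, the receptor that takes up transferrin-bound iron and is abundant in dividing cells and erythroid precursors, was higher in each Epcam-derived tumour than in either Albumin-derived one. So were 17.6% of all features. Tfrc was at 0.93 and -0.44 with CLC, 0.46 and -0.39 without CLC, and -2.05 and -0.95 in the Albumin-derived tumours. The difference with CLC against Albumin-derived was 1.75 ± 0.63, or 3.35-fold (limma, adjusted p = 0.275), and without CLC it was 1.53 ± 0.63, or 2.90-fold (limma, adjusted p = 0.255). With CLC against without it was 0.21 ± 0.63. The second Tfrc probe gave 1.75 and 1.46 against Albumin-derived tumours, so both probes gave the same direction and nearly the same size. Within slide 1 the difference with CLC against Albumin-derived was 2.43, and with the slide as a block the difference without CLC was 2.90 ± 0.92.

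Tfrc varied within the Epcam-derived groups along with the summed level of erythroid markers, most of which came from globin genes. The summed level of the 7 measured erythroid genes of 14 was 1108 and 145 with CLC, 1276 and 137 without CLC, and 382 and 256 in the Albumin-derived tumours. In each Epcam-derived group the tumour with the higher Tfrc also had the higher erythroid sum, whereas of the Albumin-derived tumours the one with the higher sum of 382 had the lower Tfrc. Within the Epcam-derived groups Slc4a1 varied as the globin genes Hba-a1, Hba-a2 and Hbb-bt did, and Alas2 varied less in the same direction. Ermap lay between 0.43 and 0.75 in all tumours. Klf1 was at -3.66 with CLC and -3.45 without CLC in the tumour with the higher Tfrc, against -3.86 and -3.19 in the other. Tfrc was at -0.44 and -0.39 in the Epcam-derived tumours with the sums of 145 and 137. The erythroid genes Epb42, Gata1 and Rhag were not well above background on any array. The part of erythroid RNA in the Tfrc difference was not tested.

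Fth1 and Ftl1, the heavy ferritin chain with ferroxidase activity and the light chain that aids mineral storage, differed little in the main fit. With the slide as a block, the differences without CLC against Albumin-derived were 1.17 for Fth1 and 0.68 for Ftl1. Fth1 was at 8.72 and 8.07 with CLC, 8.72 and 8.49 without CLC, and 7.85 and 8.33 in the Albumin-derived tumours. Its processed signals, not scaled between arrays, were 132994 and 131365, 179131 and 163988, and 65471 and 98235 in the same order. Its difference was 0.52 ± 0.34 without CLC against Albumin-derived (limma, adjusted p = 0.437), where the groups did not overlap, and 0.31 ± 0.34 with CLC against Albumin-derived, where they did. Non-overlapping groups were seen for 5 of the 10 genes (Bmp6, Tfrc, Fth1, Trf and Cp) in the first of these comparisons, and for 55.2% of all features. In the second it was 50.8% of features and 3 of the 10 genes (Bmp6, Tfrc and Trf), and with CLC against without it was 30.1% of features and Cp alone.

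Ftl1 was at 9.66 and 8.98 with CLC, 9.39 and 9.26 without CLC, and 9.27 and 9.38 in the Albumin-derived tumours by its brighter probe. The processed signals of that probe, not scaled between arrays, were 254444 and 246578, 285586 and 279526, and 176223 and 203200 in the same order. By the normalised signal the differences were 0.00 ± 0.31 without CLC and -0.01 ± 0.31 with CLC against Albumin-derived. The 95% interval of each stayed between -0.79 and 0.78. The dimmer probe read 7.48 and 6.53 with CLC, 7.05 and 6.90 without CLC, and 6.26 and 6.67 in the Albumin-derived tumours. Fitted probe by probe over 34772 probes, the dimmer probe gave 0.51 ± 0.39 without CLC (limma, adjusted p = 0.504) and 0.54 ± 0.39 with CLC (limma, adjusted p = 0.558). Neither probe passed the threshold, and the difference between the probes was not tested. Ferritin light chain has many near-identical pseudogenes in the mouse genome, so which copies a probe reads is uncertain.

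Slc40a1, which encodes ferroportin, the only known cellular iron exporter, had close group means in the main fit. It was at 3.83 and 2.30 with CLC, 3.44 and 3.02 without CLC, and 3.21 and 3.14 in the Albumin-derived tumours. The 2 tumours with CLC were the highest and the lowest of the 6, 2.89-fold apart, so the groups overlapped. The difference was 0.05 ± 0.53 without CLC and -0.11 ± 0.53 with CLC against Albumin-derived, and -0.16 ± 0.53 with CLC against without, with a 95% interval of -1.48 to 1.15 for the last. With the slide as a block, the difference without CLC against Albumin-derived was 1.58. Within slide 1 the difference with CLC against Albumin-derived was 0.65, and within slide 2 that with CLC against without was -0.93. Macrophages express ferroportin strongly, so macrophage and Kupffer markers were set beside it. Of 14, 11 were higher with CLC against Albumin-derived, with a median of 1.43, and 12 were higher without CLC, with a median of 0.88. Their summed level was 184 and 126 with CLC, 97.4 and 128 without CLC, and 57.0 and 103 in the Albumin-derived tumours, and their part in the Slc40a1 levels was not tested.

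Cp, the copper ferroxidase that hepatocytes secrete and that aids iron release, had the smallest pooled within-group SD of the 10 genes, and its probes gave differences of opposite sign. Its brightest probe, for the transcript NM_007752, was at 7.51 and 7.26 with CLC, 7.11 and 6.97 without CLC, and 7.50 and 7.56 in the Albumin-derived tumours. The tumours without CLC lay below all other tumours, by -0.49 ± 0.25 against Albumin-derived (limma, adjusted p = 0.333), and the difference with CLC against without was 0.35 ± 0.25 (limma, adjusted p = 0.999). A second probe for NM_007752 ran the same way, with -0.44 and 0.40 in these comparisons.

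The other 2 Cp probes ran the opposite way. The probe for NM_001276250 was at -1.08 and -1.65 with CLC, -1.15 and -0.72 without CLC, and -2.67 and -2.11 in the Albumin-derived tumours. The probe for NM_001276248 was at -2.64 and -2.25 with CLC, -2.17 and -0.58 without CLC, and -3.92 and -3.41 in the Albumin-derived tumours. In both, all 4 Epcam-derived tumours lay above both Albumin-derived ones, as they did for 17.6% of all features. Fitted probe by probe, NM_001276250 differed by 1.45 ± 0.36 without CLC against Albumin-derived (limma, adjusted p = 0.137) and by 1.02 ± 0.36 with CLC (limma, adjusted p = 0.269). NM_001276248 differed by 2.29 ± 0.56 (limma, adjusted p = 0.136) and 1.22 ± 0.56 (limma, adjusted p = 0.369). None of the 4 probes passed the threshold over 34772 probes, and the difference between the probes was itself not tested. Taking the mean of all Cp probes in place of the brightest turned the difference without CLC against Albumin-derived to 0.70, so the direction for Cp depended on which probes were read.

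**Figure D3:**
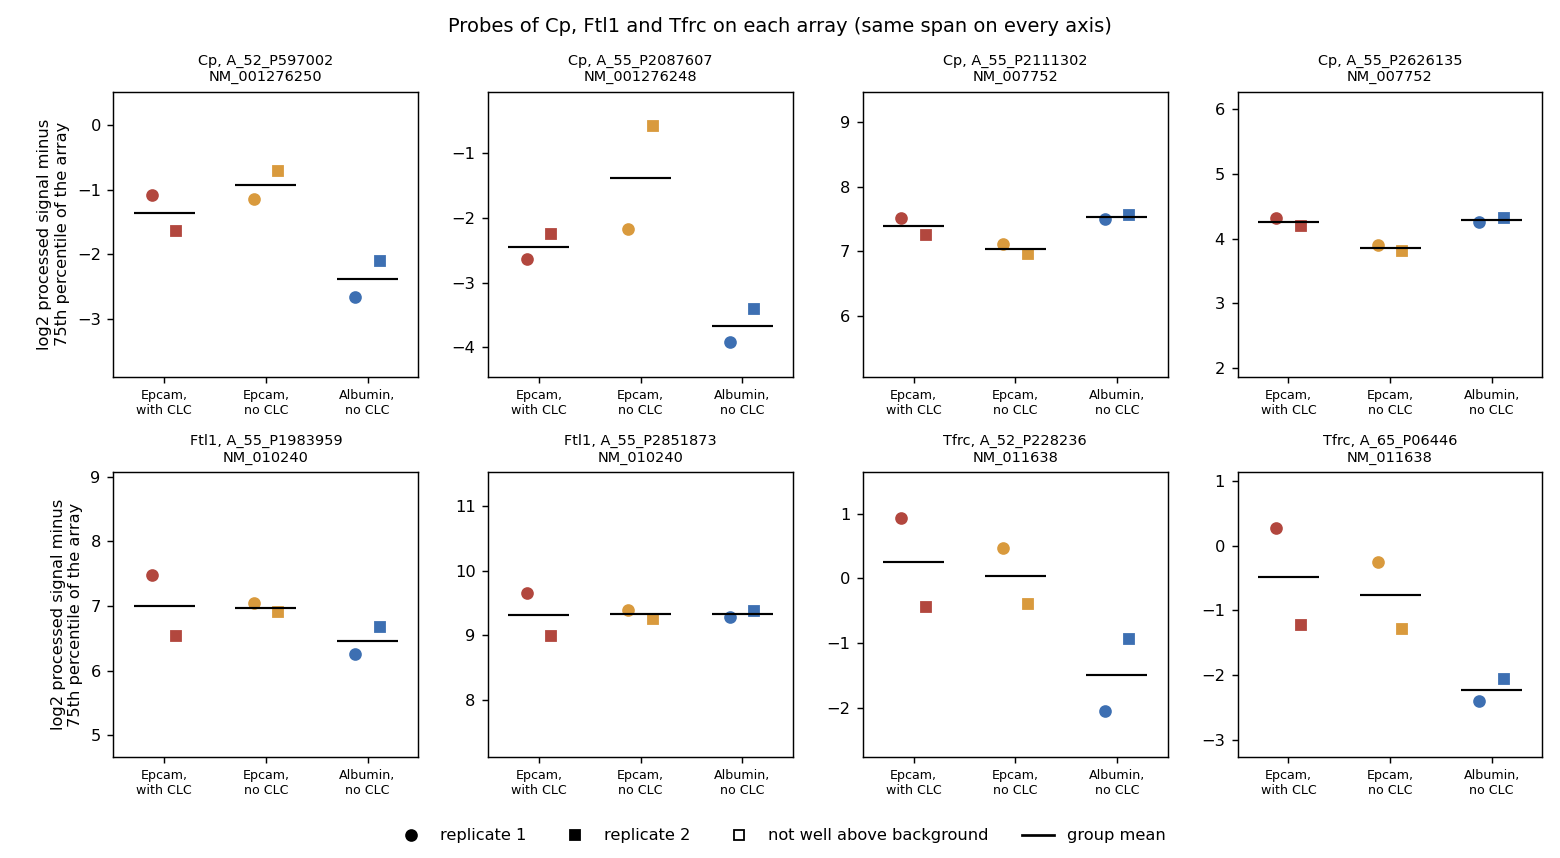
Normalised log2 signal (y axis) of every probe of Cp (4 probes), Ftl1 (2) and Tfrc (2) in the 3 groups, 1 point per tumour and a line at the group mean. The NM_007752 probes of Cp are lowest in Epcam-derived tumours without CLC, the other 2 Cp probes are lowest in the Albumin-derived tumours, and both Tfrc probes share 1 pattern.

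Of 92 further iron genes in 5 lists, 84 were measured, and none passed the threshold in any comparison. At an unadjusted p under 0.05 without CLC against Albumin-derived, 6 were higher and 14 lower, against 11.7% and 8.28% of all features. In Epcam-derived with CLC against Albumin-derived tumours 3 were higher and 9 lower, against 7.95% and 8.06%, and with CLC against without there were 0 and 0, against 1.31% and 2.17%. The medians over the 84 genes were -0.13, -0.08 and 0.06 in these comparisons, in the order given. Cybrd1, Sost, Grem1 and Ftmt were not well above background on any array.

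The 16 measured uptake and import genes had a median difference of -0.47 without CLC and -0.23 with CLC against Albumin-derived. Flvcr2, reported as a heme importer, differed by -1.81 ± 0.54 without CLC (limma, adjusted p = 0.175) and -2.01 ± 0.54 with CLC (limma, adjusted p = 0.188). Steap3, the ferrireductase of the transferrin cycle, ran the other way and differed by 1.12 ± 0.25 without CLC against Albumin-derived (limma, adjusted p = 0.115) and by -0.56 ± 0.25 with CLC against without. Cd163, the macrophage receptor for haemoglobin bound to haptoglobin, was not well above background in either Albumin-derived tumour. In the main fit it was at least 4.26-fold higher with CLC (limma, adjusted p = 0.142). That bound did not hold under all the alternatives given below, where its log2 difference ran from 0.65 to 4.08 with CLC. Macrophage markers were higher in the same tumours, as given above. Slc46a1, the folate transporter once described as a heme carrier, differed by 0.60 ± 0.38 with CLC against without.

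Among 29 measured hepcidin control genes the medians were -0.18 without CLC and -0.10 with CLC against Albumin-derived. Atoh8 differed by -1.39 ± 0.46 (limma, adjusted p = 0.193) and -1.47 ± 0.46 (limma, adjusted p = 0.23) in these comparisons. Il6ra, the IL-6 receptor, differed by -0.78 ± 0.25 with CLC. Chrd, which encodes the BMP antagonist chordin, differed by 0.94 ± 0.27 without CLC against Albumin-derived and by -0.65 ± 0.27 with CLC against without. Neo1, which encodes neogenin, a partner of hemojuvelin, differed by 0.76 ± 0.40 with CLC against without. None of these genes passed the threshold.

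The 6 export and ferroxidase genes had medians of 0.84 without CLC and 0.58 with CLC against Albumin-derived tumours. App, the amyloid precursor reported to hold ferroportin at the membrane, differed by -2.08 ± 0.33 without CLC (limma, adjusted p = 0.0769) and by -1.87 ± 0.33 with CLC against Albumin-derived (limma, adjusted p = 0.113). Hephl1, a copper ferroxidase, was not well above background in any Epcam-derived tumour. In the main fit it was at least 3.69-fold lower without CLC and at least 2.35-fold lower with CLC than in Albumin-derived tumours. These bounds did not hold under all the alternatives given below. There its log2 difference ran from -4.04 to -0.85 without CLC and from -4.02 to -0.62 with CLC. Heph, the ferroxidase hephaestin, was at -1.29 and 1.60 with CLC, 1.66 and 3.08 without CLC, and -2.35 and -3.17 in the Albumin-derived tumours. It differed by -2.22 ± 1.02 with CLC against without. Its difference of 5.13 ± 1.02 without CLC against Albumin-derived (limma, adjusted p = 0.101), named after its value was seen, was the highest of the 84 genes. Gstp1, a glutathione transferase, differed by -0.61 ± 0.31 with CLC against without.

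Genes of intracellular sensing and of the mitochondrial iron-sulfur pathway had smaller differences, with medians between -0.11 and 0.17 in the 3 comparisons. Hmox2, the constitutive heme oxygenase, differed by -1.05 ± 0.38 without CLC and -1.02 ± 0.38 with CLC against Albumin-derived. Mcoln1, a lysosomal channel that releases iron, differed by -0.91 ± 0.31 without CLC against Albumin-derived and by 0.51 ± 0.31 with CLC against without. Aco1, the iron regulatory protein IRP1, differed by 0.88 ± 0.43 with CLC against Albumin-derived, and Herc2, a ubiquitin ligase of the ferritinophagy receptor NCOA4, by -0.42 ± 0.29 with CLC against without.

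Hspa9, the mitochondrial chaperone of iron-sulfur transfer, differed by -1.63 ± 0.26 without CLC (limma, adjusted p = 0.079) and -1.35 ± 0.26 with CLC against Albumin-derived (limma, adjusted p = 0.12). Lyrm4, a subunit of the cysteine desulfurase complex, differed by -0.91 ± 0.29 and -0.64 ± 0.29 in the same comparisons. Abcb10, a mitochondrial transporter linked to heme synthesis, differed by 0.34 ± 0.25 and Hscb, a co-chaperone of cluster transfer, by -0.30 ± 0.24 with CLC against without. None of these genes passed the threshold.

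**Figure D4:**
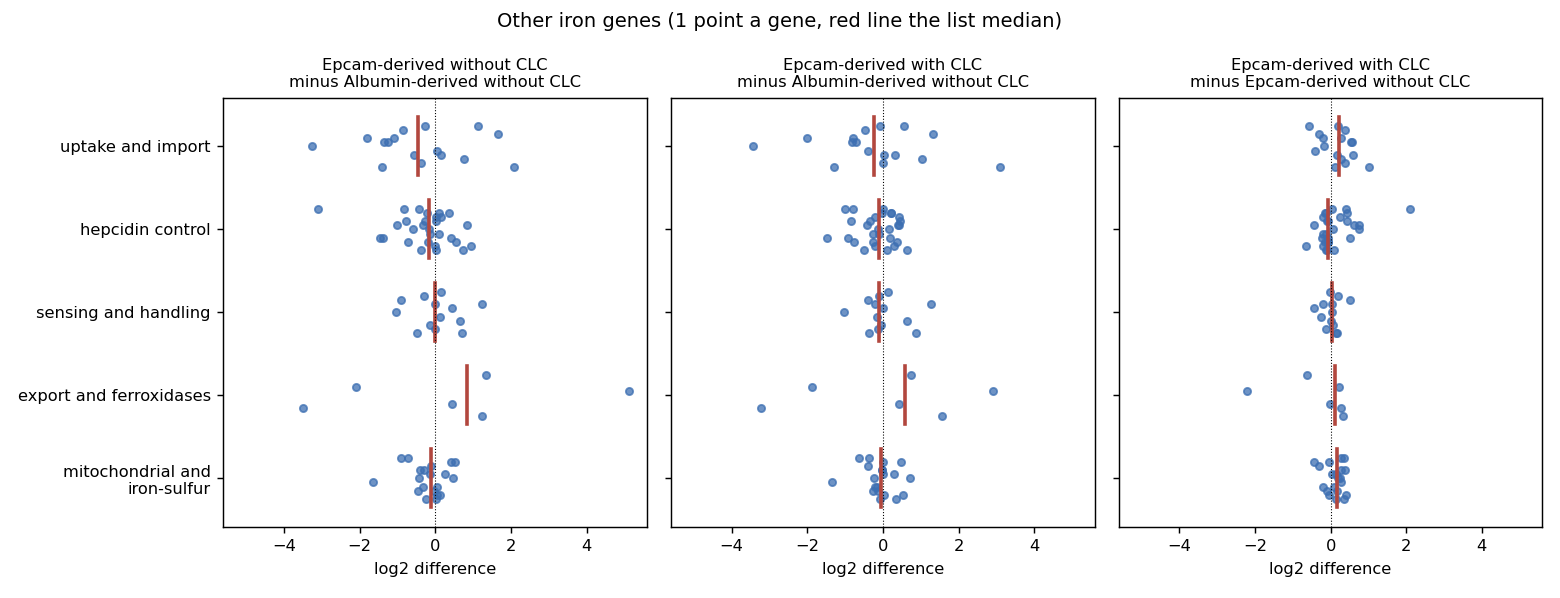
Log2 difference (x axis) of the 84 measured genes of the 5 further iron lists in the 3 comparisons, 1 point a gene and a red line at the list median. Heph lies farthest out at 5.13 without CLC against Albumin-derived tumours, Hephl1 is drawn at its fitted value although not well above background in Epcam-derived tumours, and most genes of the mitochondrial list lie near 0.

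The genes most like a member over the 6 arrays were sought for the 3 members with the widest range, Hamp (6.59 log2 units), Bmp6 (4.46) and Hamp2 (3.42). Pearson correlations were taken with the 15868 tested features that have a symbol. Over 6 arrays that share groups and slides they are a description only. For Hamp, Fbxo9, Ppa1, Med14, 4933417G07Rik and Vrk1 came closest, led by Fbxo9 at 0.992, and 52 of these features exceeded 0.95. For Bmp6 they were Cmtr1, Eml3, Prelp, Zfp931 and Cyp2c37, led by Cmtr1 at 0.992, with 29 features over 0.95. For Hamp2 they were Fam205a2, Cadm3, Gm16159, Gm39590 and Agxt2, led by Fam205a2 at 0.984, with 18 features over 0.95. None of the genes named for likeness was one of the 10 or of the iron lists. Among the 10 genes themselves, Ftl1 and Slc40a1 were most alike at 0.97 and Tfrc and Fth1 next at 0.90, while Hamp and Bmp6 stood at -0.37.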

How the data were processed

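Per the file headers, spots were quantified by Agilent Feature Extraction (version 11.5.1.1). The deposited processed signal is a spot intensity, background-subtracted and detrended but not scaled between arrays, per the file headers. The authors also deposited a table of intensity per probe, which equalled the processed signal times 1 factor per array (1.64 to 2.42). Its scale is linear, it is not centred, and what set the factors is unknown.

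Control and outlier spots were left out, log2 was taken, the 75th percentile of each array was subtracted, and spots of a probe were averaged. Probes well above background (at least 0.5 of their spots) on both arrays of at least 1 group were kept. The array design is annotated on mm9. Accessions were matched to RefSeq symbols (GRCm38.p6, names only), the brightest probe stood for a symbol, and 27412 features, 15868 with a symbol, were tested in limma 3.58.1 (R 4.3.3, all 6 arrays in 1 fit, 3 residual and 2.62 prior degrees of freedom), with data.table (1.17.8) and jsonlite (2.0.0). The fit was tested on simulated data. Promoters were aligned with biopython 1.88. A bound sets the bright group against the lowest signal well above background, or the dim probe's own if higher. The number of arrays limits the precision.

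The genes and lists were chosen with earlier results of these data known. Of the lists, genes that passed and the 2 smallest p per iron list and comparison were named, and for likeness the 5 features with a symbol that correlated best. Alternatives were another background correction (normexp on the median signal, since no mean signal column was at hand), scaling, dim-probe filter, probe summary, slide and replicate blocks, the 2 groups alone, an intensity trend, and leaving out each tumour. Fitting every probe on its own was added after seeing the data.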

Additional observations from a re-analysis of the deposited data

How the results depend on the processing

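Over 20 alternatives (19 without CLC against Albumin-derived, which has no within-slide value), none of the 10 genes passed in any comparison. Of their 30 differences, 12 were at least 1 SE, and 5 of those 12 changed sign in some alternative, as did all 18 smaller ones. Trf turned to 0.071 (quantile) and 0.19 (slide block) without CLC against Albumin-derived and to 0.059 (quantile) with CLC against Albumin-derived. Cp turned to 0.70 without CLC against Albumin-derived and to -0.19 with CLC against without under the mean of its probes, and Hamp ran from -0.56 to 4.04 with CLC against without when 1 tumour was left out, the lowest without the low tumour of the group without CLC. Cp turned because the mean takes in the probes of its other transcripts; the cause for Trf was not tested. Bmp6 (0.64 to 2.79 without CLC, 1.35 to 3.79 with CLC) and Tfrc (0.98 to 2.90 and 1.06 to 2.43) stayed higher than in Albumin-derived tumours under every alternative that measured them; Bmp6 was not measured under the filter on all arrays.

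Calls over all features were unstable, and the cause was not tested. Without CLC against Albumin-derived, 67 were called, against 135 with normexp, 106 with quantile scaling, 106 with median centring, 129 with the authors' table, 1 with no filter, 32 with the filter on all arrays, 110 with the mean of probes, 40 with symbols only, 0 with the slide as a block, 11 with the replicate block, 16 with the 2 groups alone, and 0 to 16 leaving out 1 tumour. With CLC against Albumin-derived, 17 were called, against 66, 68 and 35 with normexp, quantile and median centring, 1 with no filter, 39 with an intensity trend, and 0 with the slide block, within 1 slide, with the replicate block, with the 2 groups alone and leaving out any 1 tumour. With CLC against without it was 0 throughout. Higher and lower calls without CLC against Albumin-derived were 16 and 51, but 63 and 66 with the authors' table, whose scaling moved the median of all features to 0.37, while normexp moved it to -0.16.

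Over all features, the deviations of same-numbered tumours from their group means correlated at -0.159, 0.062 and 0.232 in the 3 comparisons. The replicate numbers were therefore not taken as pairs, and the replicate block changed no call among the 10 genes. Apcs kept its direction in 19 of 19 alternatives and its call in 8. The genes named from the iron lists by the smallest p, and Heph, kept their direction, in the comparisons given above, in every alternative that measured them, whereas Bmp2 changed sign in 3 of 19 without CLC and 7 of 20 with CLC against Albumin-derived. For the list genes, alternatives were read for those named by the smallest p, Apcs, Atoh8, Bmp2, Heph, Hjv, Id1, Smad6 and Smad7 only. Of these, apart from Apcs, only Hspa9 without CLC against Albumin-derived passed, in 1 of 19 (limma, adjusted p = 0.0482). Signal over background limits Bmp6, which was not well above background in 1 Albumin-derived tumour.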
